A study of Mus musculus with 9 samples.

Results

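Toll-like receptors and the proteins that present LPS to them were followed in RiboSeq data through 10 genes, of 16921 in the table. They were chosen by name and not by their values, although earlier results of these data were known. The genes were Tlr1, Tlr2, Tlr3, Tlr4, Tlr6, Tlr7 and Tlr9, with the LPS co-receptors Cd14 and Ly96 and the receptor-like gene Cd180. RiboSeq sequences the stretches of mRNA that ribosomes protect from nuclease, so that a value reflects both the amount of an mRNA and how densely ribosomes occupy it. The data cannot tell these apart, and in a bulk culture fewer cells with an mRNA and less mRNA per cell cannot be told apart either.

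The cells were immortalized bone marrow-derived macrophages from TTP-deficient (TTP-/-) mice. TTP, encoded by Zfp36, is an RNA-binding protein that promotes the decay of mRNAs. The precursor cells had been grown in M-CSF, immortalized with hcmyc and hRasG12V, sorted for CD11b and F4/80 and transduced with a tetracycline-inducible retroviral vector. The lines expressed GFP without a partner (GFP-only), wild-type TTP fused to GFP (GFP-TTP) or GFP-TTP-AA, a mutant (S52A and S178A) in which the kinase MK2 cannot phosphorylate the named serines. All 9 libraries, 3 per condition, came from cells given 1 µg/ml doxycycline for 6 h and 1 µg/ml LPS for 1 h, and unstimulated cells were not analysed here. Each condition was a line of its own, transduced separately, and only the TTP coding sequence was in the vectors. The study's methods give an age of 6 weeks for the mice whose marrow was taken, and their sex is not given in the sources used here. The design asks what TTP does to these mRNAs (GFP-TTP over GFP-only), what the mutant does (GFP-TTP-AA over GFP-only) and what phosphorylation of TTP changes (GFP-TTP-AA over GFP-TTP). The 3 comparisons share libraries and are not independent.

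Toll-like receptors are membrane proteins whose leucine-rich ectodomains bind microbial molecules. TLR1, TLR2, TLR4 and TLR6 act at the cell surface, where TLR2 pairs with TLR1 or TLR6 to recognize lipopeptides, and TLR4 recognizes LPS together with MD-2, the product of Ly96. CD14 hands LPS to the TLR4–MD-2 pair. TLR3, TLR7 and TLR9 lie in endosomes and recognize double-stranded RNA, single-stranded RNA and CpG DNA. CD180 resembles TLR4 outside the cell but lacks its signalling domain. In macrophages, LPS acts mainly through CD14, MD-2 and TLR4.

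TTP is known to bind AU-rich elements in 3′UTRs, so the 3′UTRs of the 10 genes were searched on the transcript strand for the heptamer TATTTAT and the pentamer ATTTA, which the heptamer contains. Only Tlr3 and Tlr4 held the heptamer in the transcript used for each gene, the one with the longest coding sequence in GENCODE vM21 on GRCm38. Tlr3 had 3 heptamers in a 3′UTR of 1248 bases and Tlr4 had 1 in 1321 bases. They are shown because TTP is known to prefer such letters. The capitals mark the heptamer, and in the first line 2 heptamers that overlap. The Tlr3 sequences lie at chr8:45396805-45396833 and chr8:45396503-45396531 on the minus strand, and that of Tlr4 at chr4:66842012-66842040 on the plus strand.
Tlr3, 89 bases after the stop codon: agttttgtaTATTTATTTATatgtataga
Tlr3, 393 bases after the stop codon: tgtcttgaactTATTTATctctgcctccc
Tlr4, 544 bases after the stop codon: taagaatgctaTATTTATtaaatacaatt
The pentamer occurred 5 times in the 3′UTR of Tlr3 and 2 times in that of Tlr4. Tlr7, Cd14 and Cd180 held 1 pentamer each and no heptamer, in 3′UTRs of 407, 233 and 522 bases. Neither motif was found in the 3′UTRs of Tlr1 (166 bases), Tlr2 (148 bases), Tlr6 (1111 bases), Tlr9 (273 bases) and Ly96 (74 bases). Over 9845 protein-coding genes with a mean value of at least 10, 27.8% held the heptamer and 66.7% the pentamer, with a median 3′UTR of 965 bases. A match is a description of the letters and not a binding site. The longest annotated 3′UTR was another one only for Cd180, with 1391 bases and the same counts.

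**Figure D1:**
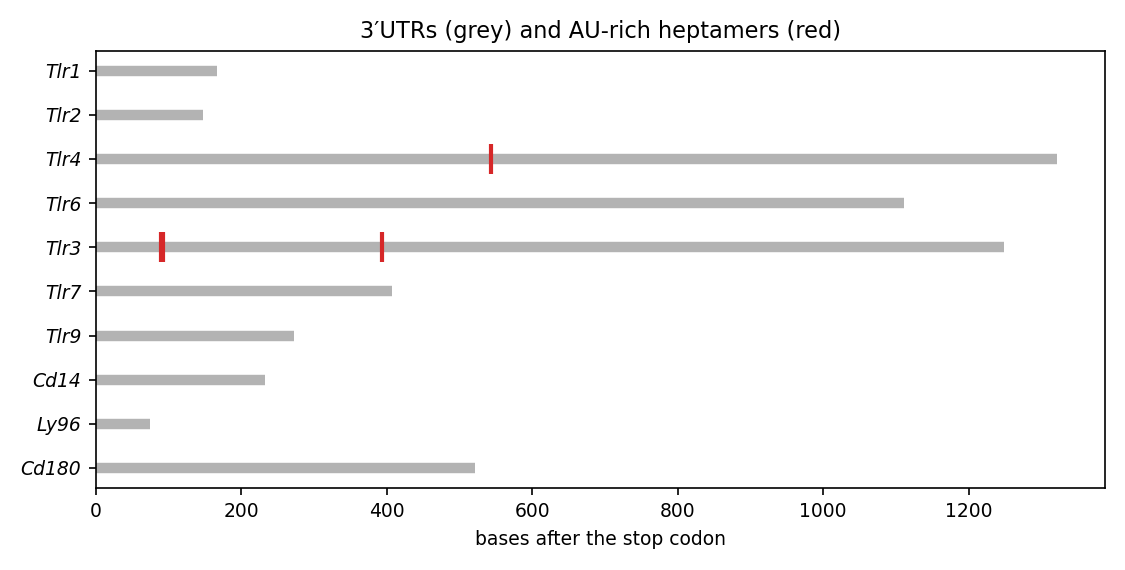
3′UTRs of the 10 genes drawn to scale in bases after the stop codon (grey bars), with each AU-rich heptamer marked by a red tick. Marks are seen on Tlr3, where 2 of the 3 overlap, and on Tlr4; the bars of Ly96, Tlr2 and Tlr1 are the shortest, at 74, 148 and 166 bases.

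The values in the deposited table were those that the authors' DESeq2 model fitted, and not observed counts. The log2 values equalled a condition term plus a replicate-number term for each gene (residual SD 1.64e-15 against an SD of 4.79 for the values). The distance between replicates is therefore the same in every condition by construction, and overlap between conditions measures nothing beyond the fit. The sum of the fitted values of a library was 2570292 at the lowest and 12804501 at the highest. Below, each value is a fitted value after division by a library's size factor (0.415 to 2.12), the level of a condition is the geometric mean of its 3 libraries, and the standard error (SE) of a log2 fold change is that of the authors' model. Replicate numbers 1, 2 and 3 are given in that order. Zfp36, which counts footprints on the constructs too, had a level of 459.0 with GFP alone, 927.4 with GFP-TTP and 1535 for GFP-TTP-AA. The mutant line thus also held more Zfp36 footprints than the wild-type line (log2 fold change 0.73, SE 0.25, adjusted p = 0.0395 by the Wald test described below). Footprints are not an amount of protein, and the paper reports similar protein levels of GFP-TTP and GFP-TTP-AA. All 8 macrophage markers examined (Itgam, Adgre1, Csf1r, Cd68, Lyz2, Fcgr1, Spi1 and Ptprc) had a mean of at least 10, whereas 0 of the B cell, T cell, fibroblast and dendritic cell markers did. The summed macrophage markers ranged from 82226.5 to 100766 in GFP-only libraries, from 64249 to 78108 with GFP-TTP and from 91514 to 113389 for GFP-TTP-AA. Of 5 neutrophil markers, 2 were in the table and only S100a8 reached a mean of 10, and their sum was 21.4 to 39.8, 20.2 to 37.8 and 43.9 to 82.4 in the same order.

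Footprints lie on coding sequence, so levels of different genes were compared only per kilobase of coding sequence. The LPS-binding co-receptor Cd14 was by far the highest of the 10 on this scale, with a mean level of 9637 per coding kilobase and 8027 to 11898 over the 9 libraries. Tlr2, the lipopeptide receptor, followed with 2102 (1394 to 3334). The MD-2 gene Ly96 and Cd180 came next and their library ranges overlapped, at 415.2 (293.1 to 618.7) for Ly96 and 450.4 (378.6 to 541.1) for Cd180. Tlr7 had 221.9 (202.0 to 252.7). Tlr4, the receptor chain for LPS, had 85.7 (78.8 to 90.4), below its partners Cd14 and Ly96 in all 9 libraries. Tlr6, Tlr9 and Tlr3 lay together at 17.9 (14.3 to 23.9), 14.6 (7.25 to 23.6) and 13.8 (11.4 to 15.4), with overlapping ranges. Tlr1 was lowest at 2.33 (1.78 to 2.90).

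**Figure D2:**
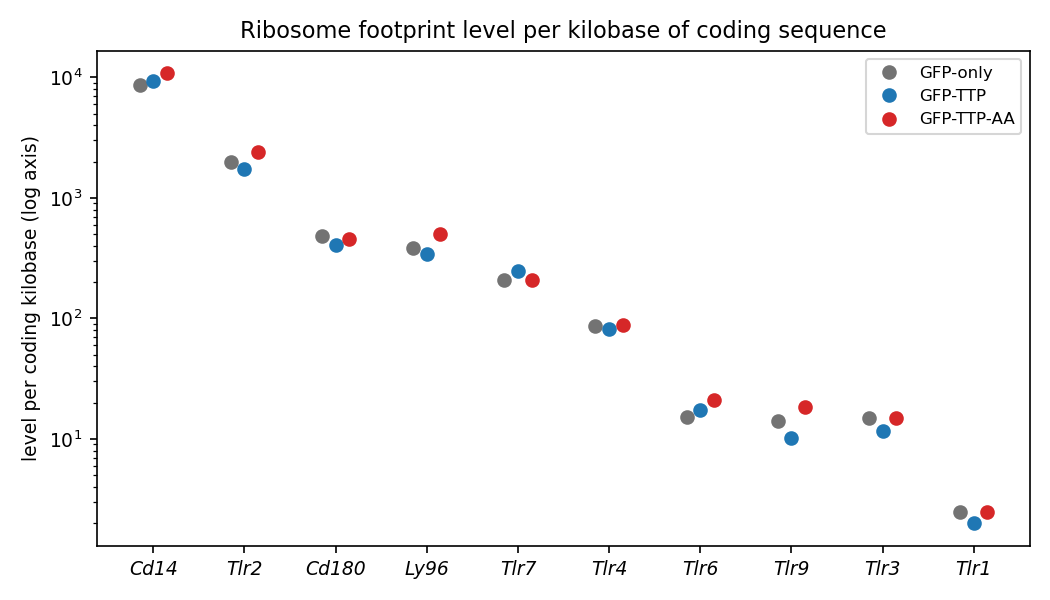
Level per kilobase of coding sequence (log axis) of the 10 genes in the 3 conditions (colours), ordered by their mean; each point is the geometric mean of 3 libraries. The means run from 9637 for Cd14 to 2.33 for Tlr1, and the colours lie close together beside the distances between genes.

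The values of Tlr1 and Tlr6 carry a further limit, because the authors kept reads with up to 2 alignments and these genes lie side by side on the minus strand of chromosome 5 and are near-copies in part. Of the 28-base windows of the coding sequence, about the length of a footprint, 630 of 2361 in Tlr1 (26.7%) were found unchanged in Tlr6, and the same 630 made up 26.3% of the 2394 windows of Tlr6. They form 9 stretches between coding bases 1294 and 2203 of Tlr1, of which the longest has 229 bases. None of the windows of the other 8 genes occurred in another gene's coding sequence. The bases around the start of that longest stretch are shown to give an idea of what separates the genes. They lie at chr5:64925751-64925780 for Tlr1 and at chr5:64954042-64954071 for Tlr6 (GRCm38, minus strand), and the capital marks the only base that differs within these 30.
Tlr1: gaccttcctgggtgCggggccttcagcagc
Tlr6: gaccttcctgggtgTggggccttcagcagc
The coding sequences of Tlr1 and Tlr6 were 72.2% identical over their length. How the counting step treated reads with 2 alignments is not given in the sources used here. Tlr1 had 6.93, 5.25 and 5.66 in GFP-only libraries, 5.62, 4.25 and 4.56 with GFP-TTP and 6.94, 5.23 and 5.63 for GFP-TTP-AA. Its mean of 5.56 lay under the minimum of 10, and it was not tested.

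The other 9 genes were tested in each comparison with a two-sided Wald test, the log2 fold change divided by its SE, and adjusted by the Benjamini-Hochberg method over all genes with a mean of at least 10, with a threshold of 0.05. Shrinkage in the authors' model had drawn each fold change closer to 0. The labels call the replicates biological but do not say that they were separate cultures. The p-values rest on the SEs of the authors' model for these libraries, because the fitted values hold no observed spread.

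None of these genes differed detectably between macrophages with and without wild-type TTP. In GFP-TTP over GFP-only macrophages, 0 of 9 genes passed the Wald test, beside 2.1% of all tested genes (209 of 9938), and 0 of the 9 had an unadjusted p under 0.05. Their log2 fold changes had a median of -0.17 and ran from -0.45 (Tlr9) to 0.26 (Tlr7), with SEs of 0.13 to 0.25 and adjusted p-values of 0.50 to 0.92. The value was below 0 for 6 genes and above 0 for 3 (Tlr6, Tlr7 and Cd14), where the median of all tested genes was 0.0034. With such SEs a small change would not be detectable, and the values do not show that levels were equal.

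In GFP-TTP-AA over GFP-only macrophages, again 0 of 9 genes passed the Wald test, beside 3.02% of all tested genes (305 of 10103). At an unadjusted p under 0.05 there were 2, Cd14 and Ly96, a looser cutoff to which the share of 3.02% does not apply. The median was 0.26, and 7 of the 9 values lay above 0, against 50.8% of all tested genes. The largest was that of Tlr6 (0.47, SE 0.24, adjusted p = 0.36 by the Wald test), and adjusted p-values of the 9 ran from 0.20 to 0.995.

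Ly96 and Tlr9 were higher in GFP-TTP-AA than in GFP-TTP macrophages. These 2 of 9 genes (22.2%) passed the Wald test, beside 10.3% of all tested genes (1036 of 10103). Of all tested genes, 5.59% were higher and 4.66% lower with the mutant. Values lay above 0 for 8 of the 9 and below 0 for Tlr7, with a median log2 fold change of 0.28 against 0.0032 for all tested genes, and 50.4% of all tested genes lay above 0. The adjusted p-values of the other 7 ran from 0.12 to 0.77.

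**Figure D3:**
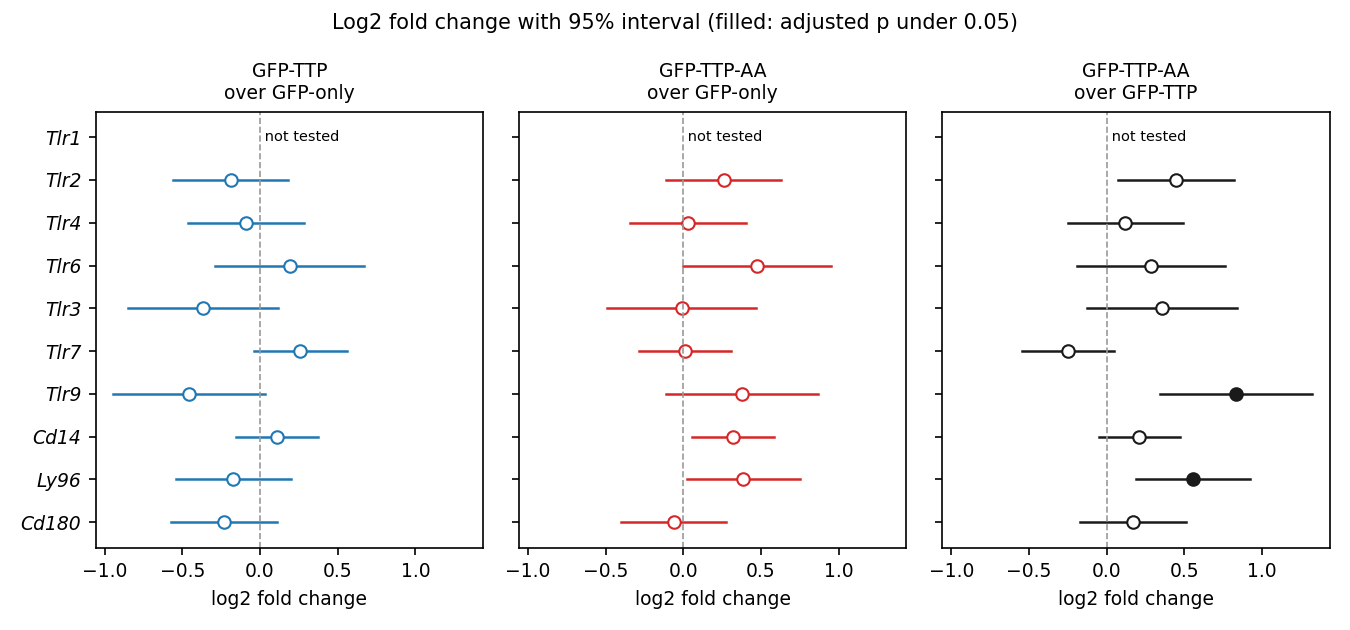
Log2 fold change (x axis) of each gene with its 95% interval (line) in the 3 comparisons (panels); filled points passed the adjusted threshold of 0.05 and Tlr1 was not tested. The filled points are Tlr9 (0.83) and Ly96 (0.56) in GFP-TTP-AA over GFP-TTP macrophages.

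Ly96 encodes MD-2, the small secreted protein that sits on the TLR4 ectodomain and holds the lipid part of LPS (ENSMUSG00000025779; chr1:16688051-16709611, plus strand, 5 exons and 483 coding bases). Its values were 158.9, 177.0 and 228.9 in GFP-only libraries, 141.5, 157.2 and 202.8 with GFP-TTP and 208.6, 230.9 and 298.8 for GFP-TTP-AA. Replicate 3 was highest. Here and for the genes below, the order of the replicates is the same in each condition because the values are fitted. Levels were 186.1, 165.3 and 243.3. Over GFP-TTP this was 1.47-fold higher, a log2 fold change of 0.56 (SE 0.19, 95% interval 0.19 to 0.92, adjusted p = 0.034 by the Wald test). When the p-values of the 3 comparisons were adjusted together, the adjusted p was 0.056 and the call was lost. Against GFP-only macrophages the difference was 0.39 (SE 0.19, adjusted p = 0.31, Wald test) with GFP-TTP-AA and -0.17 (SE 0.19, adjusted p = 0.82) with GFP-TTP. The summed macrophage markers moved the same way, lowest with GFP-TTP and highest with GFP-TTP-AA, as did the neutrophil marker sum. The macrophage marker Itgam did not follow its sum. Its level was lowest with GFP alone (2968), and the mutant line (3188) lay beside the wild-type line (3190). The part of either sum in the results for Ly96 and Tlr9 was not tested.

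Tlr9 encodes the endosomal receptor for unmethylated CpG DNA (ENSMUSG00000045322; chr9:106222598-106226883, plus strand, 2 exons and 3099 coding bases). Its values were 55.9, 30.8 and 47.8 in GFP-only libraries, 40.9, 22.5 and 34.8 with GFP-TTP and 73.0, 39.97 and 62.1 for GFP-TTP-AA. Replicate 2 was lowest in each condition. The replicate numbers spanned 0.87 on the log2 scale, wider than in 97.4% of all tested genes, whose median was 0.29. Levels were 43.5, 31.8 and 56.6, and GFP-TTP-AA over GFP-TTP gave a log2 fold change of 0.83 (1.78-fold, SE 0.25, 95% interval 0.34 to 1.32, adjusted p = 0.013 by the Wald test). From the SE, the model was estimated to have kept either 46.1% or 53.9% of the unshrunken change, which would then be 1.81 or 1.55. For Ly96 the same estimate gave either 16.8% or 83.2%, an unshrunken change of 3.31 or 0.67. The estimate by itself does not choose between them. Over all genes, the median SE was largest at a mean of 20 to 40 (0.249) and was lower, 0.181, at 160 to 320. Ly96, with a mean of 200.5, lies in the latter range, where more counts go with a smaller SE, so that the larger share and 0.67 apply better to it. For Tlr9, GFP-TTP-AA over GFP-only was 0.38 (SE 0.25, adjusted p = 0.53, Wald test) and GFP-TTP over GFP-only was -0.45 (SE 0.25, adjusted p = 0.50, Wald test). Its mean of 45.3 is low, and under a minimum of 50 it would not have been tested.

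**Figure D4:**
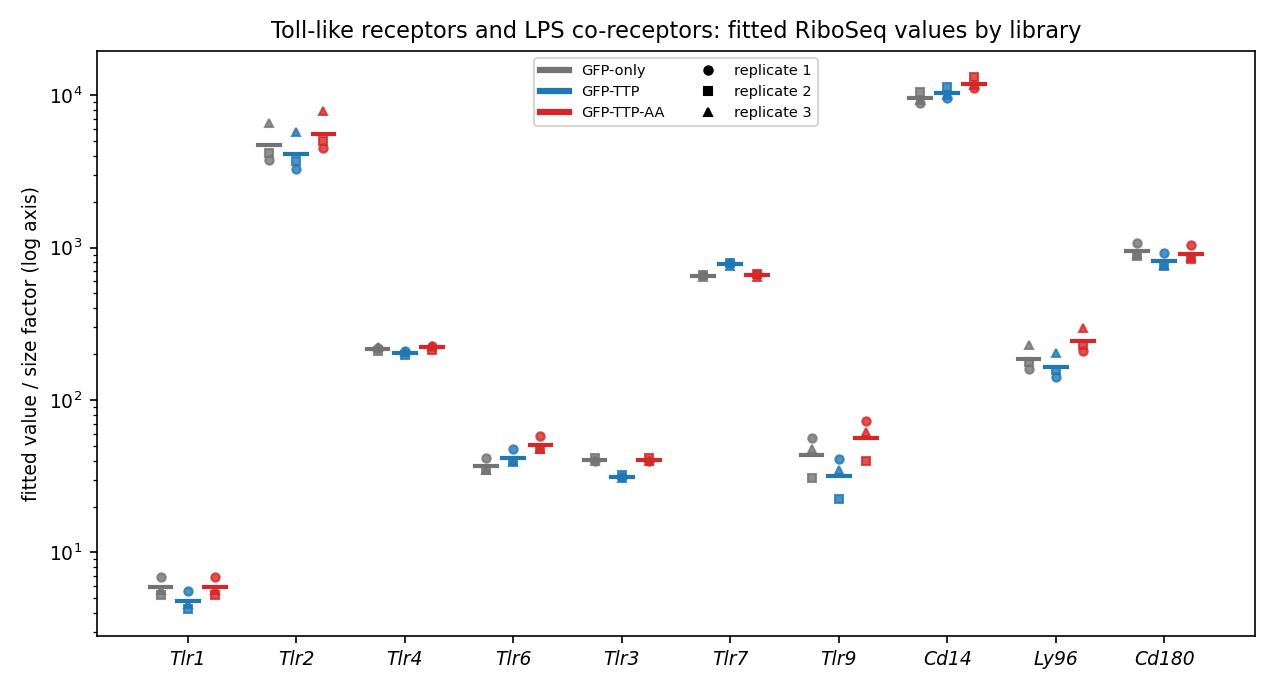
Fitted values divided by the size factor (log axis) of the 10 genes in each library; colours are conditions, symbols are replicate numbers and bars are the geometric mean of 3 libraries. Replicate 3 is the highest symbol for Tlr2 and Ly96 and replicate 2 the lowest for Tlr9, at the same distance in each condition because the values are fitted.

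Of the LPS receptor, Tlr4, the chain that carries the signal into the cell, did not pass the test in any comparison. Its values were 220.9, 210.4 and 221.9 in GFP-only libraries, 208.2, 197.7 and 208.0 with GFP-TTP and 226.6, 214.5 and 226.4 for GFP-TTP-AA. The log2 fold change was 0.12 (SE 0.19, 95% interval -0.25 to 0.49, adjusted p = 0.77, Wald test) for GFP-TTP-AA over GFP-TTP, an interval that overlaps that of Ly96, and the difference between the genes was not tested. Tlr4 was one of the 2 genes with an AU-rich heptamer and Ly96 had none, and a relation of the motif to the fold changes was not tested.

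Cd14, which is anchored to the membrane by lipid and delivers LPS, had 8837, 10513 and 9340 in GFP-only libraries, 9567, 11347 and 10057 with GFP-TTP and 11083, 13100 and 11648 for GFP-TTP-AA. Replicate 2 was highest in each condition. The difference from GFP-only macrophages on the log2 scale was 0.32 (1.25-fold, SE 0.13, 95% interval 0.058 to 0.58) with GFP-TTP-AA and did not pass after adjustment (adjusted p = 0.20, Wald test). It was 0.11 (SE 0.13, adjusted p = 0.84) with GFP-TTP, and 0.21 (SE 0.13, adjusted p = 0.36, both Wald test) for GFP-TTP-AA over GFP-TTP.

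Cd180 had values of 1075, 882.6 and 907.7 in GFP-only libraries, 918.4, 752.0 and 771.5 with GFP-TTP and 1033, 843.0 and 867.7 for GFP-TTP-AA. Replicate 1 was highest in each condition, and the log2 fold changes were -0.23, -0.06 and 0.17 for GFP-TTP over GFP-only, GFP-TTP-AA over GFP-only and GFP-TTP-AA over GFP-TTP, with adjusted p-values of 0.68, 0.95 and 0.63 by the Wald test. CD180 is known to reach the cell surface with MD-1, the product of Ly86. Per coding kilobase, Ly86 had a mean level of 0.29 and Cd180 one of 450.4.

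Among the surface receptors for lipopeptides, Tlr2 had 3731, 4194 and 6571 in GFP-only libraries, 3282, 3679 and 5749 with GFP-TTP and 4483, 5008 and 7851 for GFP-TTP-AA. Replicate 3 was far above the others, by construction alike in each condition, with a span of 0.81 on the log2 scale that was wider than in 96.8% of all tested genes. GFP-TTP-AA over GFP-TTP gave 0.45 (1.36-fold, SE 0.19, 95% interval 0.076 to 0.82), which did not pass after adjustment (adjusted p = 0.12, Wald test). Over GFP-only it was 0.26 with GFP-TTP-AA and -0.19 with GFP-TTP (adjusted p = 0.61 and 0.79, Wald test). The 467 tested genes of chromosome 3, where Tlr2 lies, had a median of -0.18 in GFP-TTP over GFP-only, and with it subtracted Tlr2 was at -0.012.

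Tlr6 had 41.4, 34.6 and 34.5 in GFP-only libraries, 47.4, 39.5 and 39.3 with GFP-TTP and 57.8, 48.0 and 47.9 for GFP-TTP-AA. Replicate 1 was highest in each condition. The value was 0.19 (SE 0.24) for GFP-TTP over GFP-only and 0.28 (SE 0.24) for GFP-TTP-AA over GFP-TTP, neither past the threshold, and part of its footprints cannot be assigned between Tlr1 and Tlr6.

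Of the endosomal receptors other than Tlr9, Tlr3 had the most AU-rich heptamers, whose relation to the fold changes was not tested. Tlr3 did not pass the test in any comparison. Its values were 39.9, 41.8 and 39.96 in GFP-only libraries, 31.0, 32.4 and 30.9 with GFP-TTP and 39.8, 41.4 and 39.6 for GFP-TTP-AA. The log2 fold change was -0.37 (SE 0.25, 95% interval -0.85 to 0.11, adjusted p = 0.62) for GFP-TTP over GFP-only and 0.36 (SE 0.25, adjusted p = 0.41) for GFP-TTP-AA over GFP-TTP, both by the Wald test. GFP-TTP-AA and GFP-only macrophages lay 0.01 apart on the log2 scale, GFP-TTP-AA at -0.01 (SE 0.24). Tlr7, the receptor for single-stranded RNA, had 663.4, 663.9 and 636.9 in GFP-only libraries, 796.7, 794.9 and 760.7 with GFP-TTP and 671.1, 667.3 and 640.6 for GFP-TTP-AA. It was the only gene of the 10 with its highest level in GFP-TTP macrophages, at 0.26 over GFP-only (SE 0.15, adjusted p = 0.54) and -0.25 for GFP-TTP-AA over GFP-TTP (SE 0.15, adjusted p = 0.34, both Wald test), neither past the threshold. Its GFP-TTP-AA over GFP-only value of 0.01 changed sign with the scaling.

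The order of the 3 levels differed between genes. GFP-TTP macrophages had the lowest level for Tlr1, Tlr2, Tlr3, Tlr4, Tlr9, Ly96 and Cd180, and GFP-only macrophages for Tlr6, Tlr7 and Cd14. Only for Ly96 and Tlr9 did a pair of conditions differ past the threshold, GFP-TTP against GFP-TTP-AA, and their other pairs did not. Of the genes with a mean of at least 50, those whose 2 log2 fold changes over GFP-only lay closest to Ly96 were Ltbr, Tmem50b and Gramd3 (distances 0.0032, 0.010 and 0.014 on the log2 scale, of 8438 genes compared). Those closest to Tlr9 were Neurl3, Slamf9 and Ociad2 (distances 0.010, 0.019 and 0.026, of 8439). Likeness here rests on the levels of 3 conditions.

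The genes that carry, cut and connect these receptors were described with 4 lists. Of the other Toll-like receptors, Tlr8 and Tlr13 were tested and 0 passed the Wald test in any comparison, with adjusted p-values from 0.22 to 0.93 (1 of them, Tlr8 in GFP-TTP-AA over GFP-TTP, had an unadjusted p under 0.05). Tlr5 had a mean of 2.13, and Tlr11 and Tlr12 were not found among the genes with values. Of 15 genes for folding, trafficking and cleavage of TLRs, 1 passed in GFP-TTP over GFP-only macrophages (lower), 1 in GFP-TTP-AA over GFP-only (higher) and 3 in GFP-TTP-AA over GFP-TTP (2 higher, 1 lower), with list medians of 0.06, 0.10 and 0.07. Of all tested genes, 2.1%, 3.02% and 10.3% passed in these comparisons. At an unadjusted p under 0.05 the list had 3, 4 and 4 genes. The share of all tested genes at that looser cutoff is not given here, so these counts show no excess.

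Cathepsin S (Ctss), a lysosomal protease known to cut TLR9 and TLR7, fell by 0.59 on the log2 scale in GFP-TTP over GFP-only (SE 0.14, adjusted p = 0.0042, Wald test) and rose by 0.91 in GFP-TTP-AA over GFP-TTP macrophages (SE 0.14, adjusted p = 4.2e-08, Wald test). Ctss lies on chromosome 3, like Tlr2, and with the median of that chromosome subtracted the first call was lost (-0.42, adjusted p = 0.15) and the second was not (0.83, adjusted p = 1.1e-06). Cathepsin L (Ctsl) rose by 0.43 (SE 0.15, adjusted p = 0.043) in GFP-TTP-AA over GFP-TTP macrophages, and legumain (Lgmn), the asparagine endopeptidase that also acts on TLR9, fell by 0.52 (SE 0.13, adjusted p = 0.0023, both Wald test). With the chromosome median subtracted, the adjusted p of Ctsl was 0.061 and that of Lgmn 9.9e-05. The other proteases of the list, Ctsb and Ctsk, were at 0.15 and 0.04 in GFP-TTP-AA over GFP-TTP (adjusted p = 0.54 and 0.92, Wald test). Slc15a3, an endosomal peptide transporter, was higher in GFP-TTP-AA than in GFP-only macrophages (0.67, SE 0.17, adjusted p = 0.0078, Wald test). Unc93b1, the chaperone that takes TLR3, TLR7 and TLR9 to endosomes, was at 0.31 in GFP-TTP-AA over GFP-TTP (SE 0.13, adjusted p = 0.11), and Hsp90b1, which folds TLRs, at -0.23 (SE 0.12, adjusted p = 0.25, both Wald test). Both would have passed with their chromosome's median subtracted (0.40 and -0.40, adjusted p = 0.027 and 0.017).

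Of 5 tested partners for LPS and lipids, 0 passed the Wald test in GFP-TTP over GFP-only, 1 in GFP-TTP-AA over GFP-only and 2 in GFP-TTP-AA over GFP-TTP macrophages, all higher. The shares of all tested genes past the adjusted threshold were the 2.1%, 3.02% and 10.3% given above. At an unadjusted p under 0.05 the numbers of the list were 1, 2 and 3, to which those shares do not apply. Lbp, the gene of LPS-binding protein, had a mean of 9.63, just under the minimum, and was not tested. Its log2 fold change was 0.88 (SE 0.23) in GFP-TTP-AA over GFP-TTP. With no minimum mean, 3 genes of the list passed in that comparison. The fatty acid receptor Cd36, a co-receptor for TLR2 with TLR6, was at 1.08 over GFP-only (SE 0.25, adjusted p = 0.0016) and 0.85 over GFP-TTP (SE 0.25, adjusted p = 0.011, both Wald test). The scavenger receptor Msr1 was at 0.82 over GFP-TTP (SE 0.15, adjusted p = 8.4e-06, Wald test). Without adjustment, 1, 4 and 4 of 11 tested adaptors and proximal kinases had a p under 0.05, again with no share of all genes beside it. After adjustment, 0 passed in GFP-TTP over GFP-only macrophages and 1 in each other comparison, beside the same shares of all tested genes. The 1 gene was Irak3, which encodes IRAK-M, an inhibitor of signalling through MyD88. Irak3 had levels of 216.3 with GFP alone, 162.4 with GFP-TTP and 412.8 for GFP-TTP-AA, and rose by 0.93 over GFP-only (SE 0.21, adjusted p = 0.0015) and 1.35 over GFP-TTP (SE 0.21, adjusted p = 4.6e-08, both Wald test). List medians for GFP-TTP-AA over GFP-TTP were 0.26 for the lipid partners and 0.28 for the adaptors and kinases, against 0.28 for the 9 receptors and co-receptors.

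**Figure D5:**
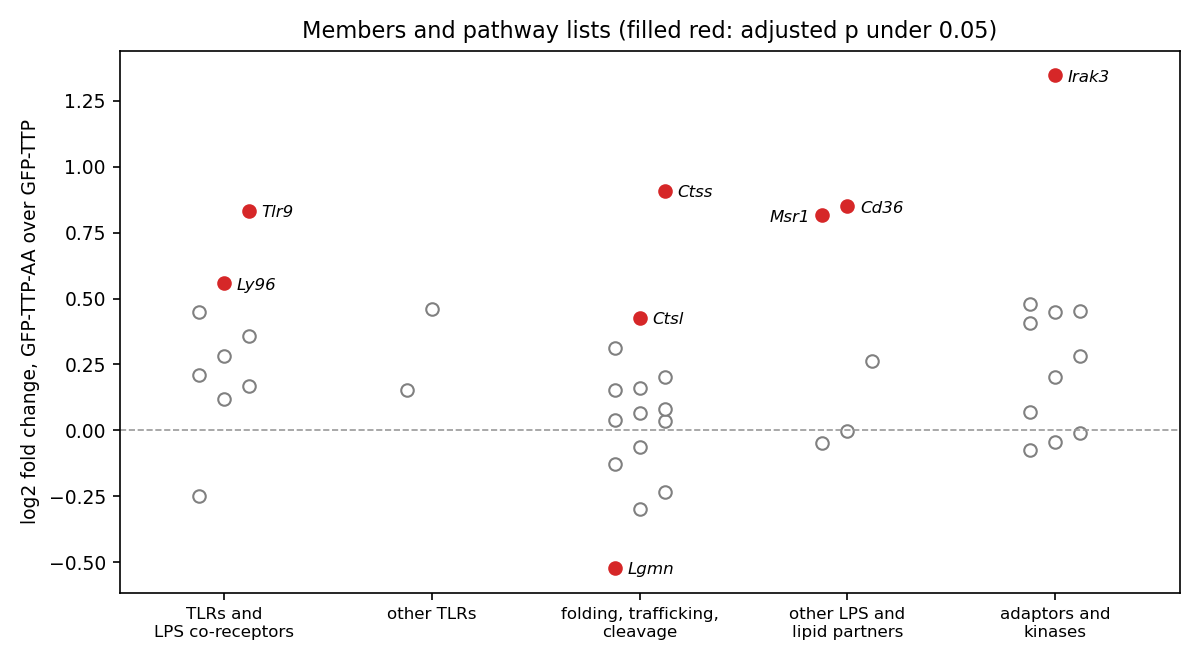
Log2 fold change of GFP-TTP-AA over GFP-TTP macrophages (y axis) for each tested gene of the 10 and of the 4 pathway lists (x axis); filled red points passed the adjusted threshold of 0.05. Irak3 is highest at 1.35, Lgmn is the only filled point below 0 at -0.52, and Ly96 and Tlr9 lie between them.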

How the data were processed

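RiboSeq was measured in 9 libraries, 3 per condition, grouped by their labels. The authors isolated ribosome-protected fragments (ARTseq kit), depleted rRNA and sequenced single 50-base reads, mapped them with TopHat to mm10 with Ensembl annotation and up to 2 alignments per read, and fitted 1 DESeq2 model with library date and condition. The submitters' processing notes name Trim Galore, TopHat2 2.0.12, HTSeq and DESeq2 1.6.3. The authors deposited the fitted signal per gene and library (16932 lines, 16921 genes, 0 zeros). Their deposited tables also hold a log2 fold change, its standard error on the log2 scale, a statistic and p-values per comparison, of which only the standard errors were used.

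From these values, size factors (median of ratios), levels, log2 fold changes and Wald p-values (normal distribution, Benjamini-Hochberg over genes with a mean of at least 10) were computed with Python 3.11.15, numpy 2.4.6, scipy 1.17.1 and pandas 2.3.3. The code was also run on simulated data. Their noise was drawn from the same standard errors, so that the run checks the code and not the standard errors. Depth per read is unknown from fitted values; precision is that of the standard errors. Sequences and positions were taken from GENCODE vM21 (GRCm38), alignments from Biopython 1.88. The part of a change kept after shrinkage was estimated by taking the largest standard error as that of a gene that keeps as much as it loses.

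Alternatives were the minimum mean (none or 50), joint adjustment, subtracted medians (all genes or chromosome), scaling to totals, a pseudocount of 10, and other transcripts. Named genes were the 10 genes, Zfp36, genes of the 4 lists past the threshold (at most 4 per list) and 3 nearest genes for each gene called. Unc93b1, Hsp90b1, Ctsb, Ctsk, Tlr5, Tlr8, Tlr13, Ly86 and Lbp were named after their values were seen, and so were the levels of Itgam. The members and lists were chosen with earlier results of these data known.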

Additional observations from a re-analysis of the deposited data

How the results depend on the processing

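No paired analysis was possible because the deposited values are fitted. The standard errors come from a model that already holds a term for the library date, which follows the replicate number in these values, and it could be refitted neither without that replicate block nor without a library. Of 153 tested values of single genes under an alternative, 150 kept their direction and side of the threshold. The minimum mean and the joint adjustment leave a fold change as it is, so only the side of the threshold could change there. A pseudocount of 10 had no test and cannot turn a direction. All 27 values with it moved by less than their SE. The number of members past the threshold in GFP-TTP-AA over GFP-TTP macrophages went from 2 to 1 with a mean of at least 50, where Tlr9 was not tested, and to 1 when the 3 comparisons were adjusted together, where Ly96 had an adjusted p of 0.056 at an unchanged 0.56. Adjusted p-values ranged from 0.033 to 0.056 for Ly96 and from 0.013 to 0.023 for Tlr9 over the alternatives. The GFP-TTP-AA over GFP-only value of Tlr7 turned to -0.028 with the median of the chromosome subtracted and to -0.0033 with libraries scaled to their totals. With the chromosome median subtracted, the list of folding, trafficking and cleavage had 0 genes past the threshold in GFP-TTP over GFP-only and 2 in GFP-TTP-AA over GFP-only macrophages; the chromosome's median was -0.18 for Ctss, and the cause was not tested. The longest coding sequence had the same length as the one used for every gene, so that the level order could not differ. The longest 3′UTR differed only for Cd180 (1391 against 522 bases), where the motif counts were the same. The values hold no observed spread, and with 1 line per condition, line and construct cannot be told apart.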
